A study of Mus musculus with 12 samples.

Results

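The transcripts of 8 genes known from macrophages that take up lipid or remodel tissue were followed through bulk thymus RNA, as 8 of the 479 gene rows analysed. They were picked by symbol: *Trem2*, *Msr1*, *Gpnmb*, *Atp6v0d2*, *Mmp12*, *Mmp13*, *Wfdc17* and *Apoc1*. The RNA came from whole thymuses of 12 mice aged 1 month, 6 WT and 6 Axl-/-Mertk-/- (3 males and 3 females of each), on a C57BL/6 background. The mutant mice lack both receptors in every cell of the body, and the methods of the study state that WT and mutant lines were kept in separate housing, so genotype and housing cannot be told apart. Mice are named by the genotype and number in their labels, where AMDKO stands for Axl-/-Mertk-/-. The question behind the comparison is how loss of Axl and Mer alters gene expression in this tissue. Values are FPKM, reads per length of exon relative to all mapped reads of a library, which correct for transcript length and so can be set side by side between genes.

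The 8 genes were chosen with their WT and mutant means in these same mice known, so their genotype values are given as a description and without p-values. The rule that chose the rows of the table is not stated, but for 469 of 479 genes the genotype means differ by more than 0.5 on the log2 scale of FPKM, which limits every background share given here. Since whole tissue was lysed, fewer cells of a type and less RNA per cell cannot be told apart. Estimated depth was 18820000 to 24460000 reads in WT and 19330000 to 23830000 in mutant libraries. *Axl*, one of the mutated genes, was at 13.3 ± 1.83 FPKM in WT and 2.17 ± 0.199 in mutant mice (SD, n = 6 each), with no overlap, and *Mertk* was not analysed here.

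Macrophages of the thymus engulf the very large number of thymocytes that die during selection. Axl and Mer are receptor tyrosine kinases that bind, through the bridging ligands Gas6 and protein S, phosphatidylserine exposed on dying cells. Engulfed corpses bring membrane lipid and cholesterol into the lysosome, and macrophages loaded with lipid typically express lipid receptors, lysosomal membrane proteins and apolipoproteins. Matrix metalloproteinases secreted by macrophages cut elastin and collagen during remodelling.

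The label "lipid-laden" could not be checked against further markers, because 0 of 30 other genes listed for that state were among the rows analysed. The same was true of 33 lysosome and vacuolar ATPase genes (0 of 33) and of other proteins with a whey acidic protein domain (0 of 6). The genes are therefore called by their symbols. Markers of resident phagocytic macrophages were all held by the table, and all 8 of 8 had a lower mean in mutant mice, but 1 of them is *Axl*, a mutated gene. The other 7 of 7 also had a lower mean, as did 313 of all 479 genes. The study itself reports *Vcam1*, *Cd163*, *Spic*, *Slc40a1*, *Itgad* and *Siglec1* as lower in these mice. The summed level of the 7 ran from 34.9 to 52.2 FPKM in mutant mice against 64.2 to 94.7 in WT. Most of that sum was *Vcam1*, at 50.995 ± 8.13 FPKM in WT and 31.02 ± 3.38 in mutant mice (SD, n = 6 each). Of the 7, only *Slc40a1* overlapped between genotypes, with a mutant maximum of 11.02 FPKM against a WT minimum of 8.72. The part of the lower marker level in the values of the 8 genes was not tested.

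Promoter sequence was read for 5 of the 8 genes (not *Atp6v0d2*, *Msr1* or *Apoc1*) from RefSeq on GRCm38.p6, as windows from 250 bases before to 50 bases after an annotated start. The motif used for AP-1 (TGANTCA, searched on both strands, and here palindromic apart from its middle base) was found in 4 of the 6 windows of these genes, 1 each of *Gpnmb*, *Mmp12*, *Mmp13* and *Trem2*, against 7.81% of 32817 mouse promoter windows. Any middle base was allowed in both counts. It was C in *Gpnmb* and *Mmp13*, G in *Mmp12* and A in *Trem2*. All 5 genes searched had a higher mean in the mutant thymus, and *Apoc1*, the lower gene, was not searched. Motif and direction can therefore not be compared here. The 4 windows with a match are shown, all on the plus strand, and capitals mark the match.
Gpnmb, chr6:49036268-49036567: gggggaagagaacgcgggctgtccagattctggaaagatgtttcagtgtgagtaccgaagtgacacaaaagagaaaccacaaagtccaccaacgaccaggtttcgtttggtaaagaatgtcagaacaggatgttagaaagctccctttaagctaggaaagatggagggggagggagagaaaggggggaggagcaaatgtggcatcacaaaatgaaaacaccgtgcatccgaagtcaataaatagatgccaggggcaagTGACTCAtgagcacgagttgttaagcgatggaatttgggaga
Mmp13, chr9:7272264-7272563: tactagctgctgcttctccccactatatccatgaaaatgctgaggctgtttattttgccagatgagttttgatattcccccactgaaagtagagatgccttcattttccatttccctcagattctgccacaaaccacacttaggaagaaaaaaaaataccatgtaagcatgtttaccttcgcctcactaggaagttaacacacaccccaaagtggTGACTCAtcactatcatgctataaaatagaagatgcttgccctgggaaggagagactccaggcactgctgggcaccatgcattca
Mmp12, chr9:7347124-7347423: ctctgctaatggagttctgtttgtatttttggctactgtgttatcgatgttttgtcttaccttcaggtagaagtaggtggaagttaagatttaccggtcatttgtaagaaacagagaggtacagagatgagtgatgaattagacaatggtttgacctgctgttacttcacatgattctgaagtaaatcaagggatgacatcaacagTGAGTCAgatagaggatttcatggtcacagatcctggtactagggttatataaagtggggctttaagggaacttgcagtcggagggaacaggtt
Trem2, chr17:48346151-48346450: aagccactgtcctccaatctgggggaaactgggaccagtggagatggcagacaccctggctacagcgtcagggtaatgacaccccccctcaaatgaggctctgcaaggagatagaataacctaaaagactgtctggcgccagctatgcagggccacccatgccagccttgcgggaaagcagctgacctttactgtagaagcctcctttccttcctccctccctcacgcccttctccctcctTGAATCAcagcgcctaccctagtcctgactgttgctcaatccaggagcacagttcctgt
The match began 35 bases before the start in *Mmp13*, 44 before it in *Mmp12*, 9 before it in *Trem2* and 8 after it in *Gpnmb*. For *Mmp12* it was in the window of its second annotated start and not in that of the first. The window of *Wfdc17* held no match. A match describes the letters of a window and is not evidence of binding. The PU.1 core GAGGAA was in 3 of the 6 windows (28.3% of all windows), TATAAA in 3 (13.6%), and the E-box CACGTG in 0 (7.15%).

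Mean FPKM was higher in Axl-/-Mertk-/- than in WT thymus for 7 of the 8 genes and lower for 1, *Apoc1*. The mutant level was 3.78 times that of WT for *Wfdc17*, 3.14 times for *Gpnmb* and 2.03 times for *Trem2*, and between 1.61 and 1.76 times for *Atp6v0d2*, *Mmp13*, *Msr1* and *Mmp12*. *Apoc1* stood at 43.1% of its WT level. Over the whole table, 166 genes had a higher and 313 a lower mutant mean. In mean FPKM over the 12 mice, *Wfdc17* (18.4) and *Apoc1* (17.5) ranked 21 and 22 of 479 and *Mmp13* (0.311) ranked 397, so the 8 genes differ widely in level.

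**Figure D1:**
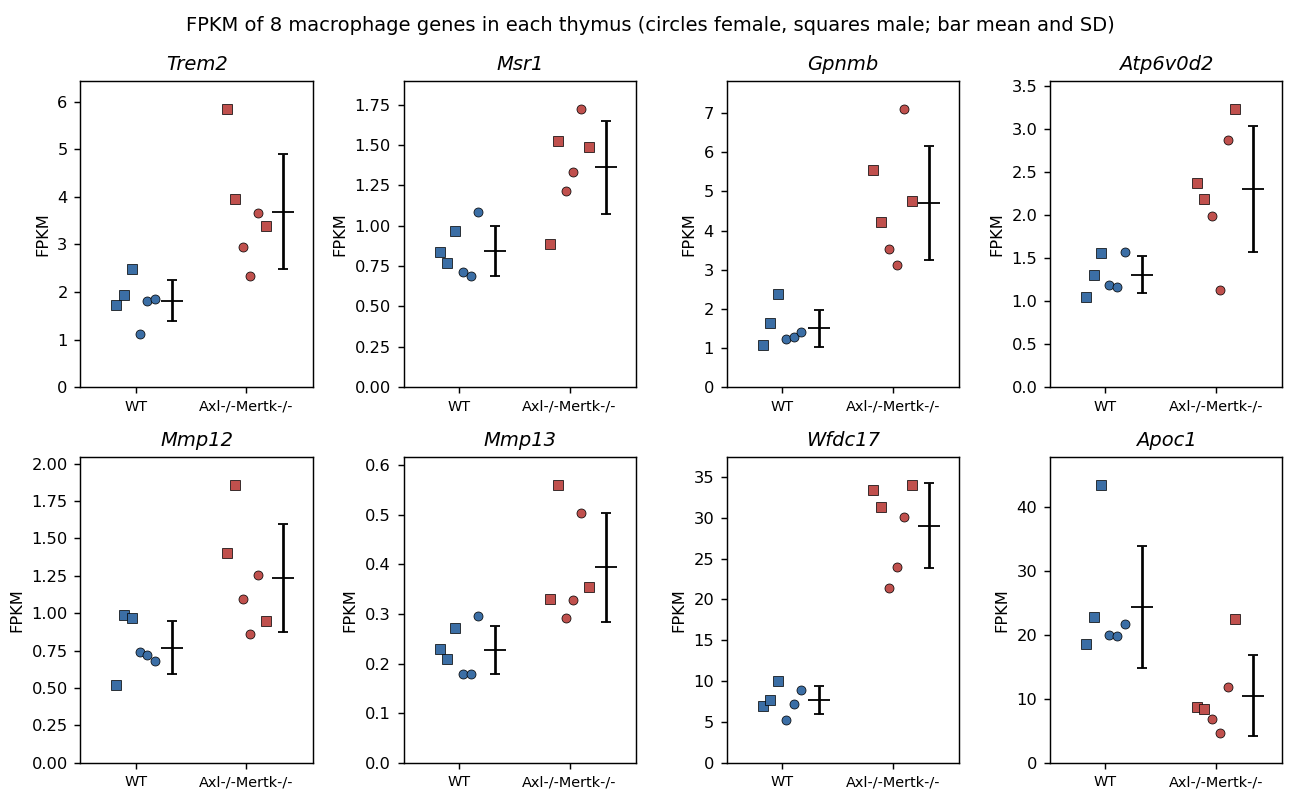
FPKM of the 8 genes in each mouse, with WT on the left and Axl-/-Mertk-/- on the right of each panel, circles for females, squares for males, and the mean with SD beside the points. Only *Gpnmb* and *Wfdc17* show no overlap between genotypes, and *Apoc1* is the gene with a lower mean in mutant mice.

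*Trem2*, on chromosome 17 (48346401 to 48354147, mm10), encodes a receptor for lipids and apolipoproteins that signals through the adaptor Tyrobp. It ran from 1.12 to 2.47 FPKM in WT (median 1.82, mean 1.82 ± 0.434, SD, n = 6) and from 2.33 to 5.85 in mutant mice (median 3.53, mean 3.69 ± 1.20, SD, n = 6). AMDKO_202 (male) was the highest at 5.85 and AMDKO_220 (female) the lowest at 2.33, the latter inside the WT range, while the other 5 mutant mice were above every WT mouse. The genotype difference in log2(FPKM + 5), the scale of the deposited values, was 0.34 (SE 0.0687).

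*Msr1*, on chromosome 8 (39581685 to 39642673), encodes the class A scavenger receptor, which takes up modified lipoproteins. Its FPKM were 0.691 to 1.087 in WT (median 0.803) and 0.890 to 1.73 in mutant mice (median 1.41), with means of 0.844 ± 0.155 and 1.36 ± 0.290 (SD, n = 6 each). AMDKO_202 (male), the highest for *Trem2*, was the lowest mutant mouse for *Msr1*, and the other 5 were above the WT maximum.

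Among 15 other scavenger receptors listed, 5 were in the table, and 4 of these had a lower mean in mutant mice, as did 313 of all 479 genes. *Mrc1*, the mannose receptor, was at 4.43 ± 0.765 FPKM in WT and 2.34 ± 0.393 in mutant mice, and *Cd163*, the receptor for haptoglobin-bound haemoglobin, at 0.664 ± 0.176 and 0.118 ± 0.0442 (SD, n = 6 each). *Stab1*, a clearance receptor, was the higher one, at 0.445 ± 0.128 and 1.12 ± 0.192. *Msr1* and *Stab1* thus had higher means beside 4 receptors with lower ones, *Marco*, *Stab2*, *Cd163* and *Mrc1*.

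*Gpnmb*, on chromosome 6 (49036546 to 49070929), encodes a membrane glycoprotein of late endosomes and lysosomes. It ran from 1.06 to 2.38 FPKM in WT (median 1.34, mean 1.498 ± 0.474) and from 3.11 to 7.11 in mutant mice (median 4.48, mean 4.71 ± 1.46; SD, n = 6 each). The lowest mutant mouse, AMDKO_220, was above the highest WT mouse, WT_212. The log2(FPKM + 5) difference was 0.57 (SE 0.0916).

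*Atp6v0d2*, on chromosome 4 (19876841 to 19922605), encodes a subunit of the proton pump that acidifies lysosomes, in an isoform typical of osteoclasts and macrophages. It was at 1.045 to 1.57 FPKM in WT (median 1.245, mean 1.30 ± 0.216) and at 1.13 to 3.23 in mutant mice (median 2.28, mean 2.30 ± 0.733; SD, n = 6 each). AMDKO_220, a female at 1.13, was below the WT mean, and the other 5 mutant mice were above every WT mouse. The coefficient of variation was 31.9% in mutant and 16.6% in WT mice.

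*Mmp13* and *Mmp12* encode collagenase 3 and macrophage elastase, and lie 61.05 kb apart on chromosome 9 (7272514 to 7283331 and 7344381 to 7369499). *Mmp13* ran from 0.179 to 0.297 FPKM in WT (median 0.219, mean 0.228 ± 0.0487) and from 0.291 to 0.561 in mutant mice (median 0.342, mean 0.395 ± 0.110; SD, n = 6 each). Of the mutant mice 5 were above the WT maximum, and AMDKO_219 (0.291) was just below it. *Mmp12* ran from 0.521 to 0.986 in WT (median 0.734, mean 0.770 ± 0.178) and from 0.861 to 1.86 in mutant mice (median 1.17, mean 1.24 ± 0.364; SD, n = 6 each), with 4 mutant mice above the WT maximum. AMDKO_203 (male) was the highest for both.

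These values rest on few reads. An FPKM of *Mmp13* corresponded to an estimated 9 to 19 reads per WT and 18 to 32 per mutant library, and counting error alone gives a coefficient of variation of 26.7% and 21.0%, against 21.4% and 27.9% observed. The spread of *Mmp13* among WT mice was no wider than counting error. For *Msr1* the WT estimate was 19 to 37 reads, with 18.3% observed and 19.0% from counting. That estimate assumed a transcript of 1424 bases, on which *Msr1* did not come out in nearly whole reads, so this comparison is uncertain. *Mmp12* had about 46 to 82 and 64 to 130 reads, and *Mmp1b*, on the opposite strand, overlaps 157 of the 7237 bases in its exons.

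Of 20 other metalloproteinases and inhibitors listed, 2 were in the table, and both had a lower mean in mutant mice, as did 313 of all 479 genes. *Mmp7*, matrilysin, was at 1.36 ± 0.427 FPKM in WT and 0.589 ± 0.372 in mutant mice, and *Adam12*, a membrane-anchored metalloproteinase, at 2.36 ± 0.463 and 1.53 ± 0.532 (SD, n = 6 each). Their ranges overlapped between the genotypes.

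*Wfdc17*, on chromosome 11 (83703991 to 83706268), encodes a small secreted protein with a whey acidic protein domain, made by activated macrophages and microglia. It ran from 5.22 to 10.1 FPKM in WT (median 7.46, mean 7.68 ± 1.69) and from 21.4 to 34.1 in mutant mice (median 30.7, mean 29.1 ± 5.18; SD, n = 6 each). The gap between the highest WT and the lowest mutant mouse was wider than the whole WT range. *Wfdc17* ranked 4 of 479 by the ratio of mutant to WT means and *Gpnmb* ranked 9, while *Trem2* ranked 36 and the other higher genes 62 to 92. On the log2(FPKM + 5) scale the difference of *Wfdc17* was 1.42 (SE 0.0964).

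*Apoc1*, on chromosome 7 (19689481 to 19692660), encodes a small apolipoprotein of circulating lipoproteins that macrophages also make, and lies 6.06 Mb from the mutated *Axl*. It ran from 18.5 to 43.6 FPKM in WT (median 20.9, mean 24.4 ± 9.50) and from 4.67 to 22.5 in mutant mice (median 8.63, mean 10.5 ± 6.31; SD, n = 6 each). WT_212 (male) stood apart at 43.6, since the other 5 WT mice ran from 18.5 to 22.8, and AMDKO_264 (male) at 22.5 lay inside the WT range while the other 5 mutant mice were below it. Without AMDKO_264, the mutant mean was 8.14 ± 2.66 (SD, n = 5), 33.4% of WT, and without WT_212 the WT mean was 20.6 ± 1.68 (SD, n = 5), so that mutant mice stood at 51.2% of it. The log2(FPKM + 5) difference was −0.96 (SE 0.229).

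Ranges that did not overlap between genotypes were found in 2 of the 8 genes with a higher mutant level, *Gpnmb* and *Wfdc17*, against 12.7% of all genes of the table, and in 0 with a lower level, against 26.3%. By limma with sex as a covariate, *Wfdc17* and *Gpnmb* were past both thresholds of the study (adjusted p under 0.05 and log2 difference beyond 0.5) upward and *Apoc1* downward, against 2.92% and 3.13% of genes, or 14 and 15 of 479. Nothing is read from these calls or shares, since the same contrast chose the genes. The constant of 5 shrinks the log2 difference of genes of low level. With a constant of 0.1 in its place, all 7 higher genes and *Apoc1* passed, but so did 29.4% of the table upward and 50.9% downward (141 and 244 genes).

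The genotype difference was then compared between the sexes, which the choice of genes did not use. The sex by genotype interaction passed the test for none of the 8 genes (limma, smallest adjusted p = 0.962 over 479 genes, 0 of 8 with an unadjusted p under 0.05), against 0.0% of the table after adjustment and 3.13% before it. The largest interaction estimate among the higher genes was that of *Wfdc17*, at 0.21 on the log2(FPKM + 5) scale (SE 0.192), and *Apoc1* had 0.15 (SE 0.480), so differences of this size between the sexes were not resolved with 3 mice each.

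Averaged over genotypes, 7 of the 8 genes had a higher estimate in males, but none passed the test for sex (limma, smallest adjusted p = 0.312), and 0.0% of the table did. The share of the table with a higher male estimate was not computed. WT males were above their genotype mean for 36.1%, 64.1% and 76.8% of the table, and WT females for 36.1%, 31.9% and 40.1%. For mutant mice the shares were 61.8%, 60.5% and 51.1% in males and 30.9%, 36.5% and 53.2% in females. *Trem2* (unadjusted p = 0.0375) averaged 2.05 FPKM in males and 1.59 in females of WT, and 4.40 and 2.98 in mutant mice. *Wfdc17* (unadjusted p = 0.0337) averaged 8.24 and 7.11 in WT, and 32.9 and 25.2 in mutant mice. These 2 genes were the only ones of the 8 with an unadjusted p under 0.05, against 14.4% (69 genes) of the whole table.

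The 8 genes were next compared among mice of the same genotype, after each value on the log2(FPKM + 5) scale was centred on its genotype mean. WT_212 (male) was above its genotype mean for 8 of 8 genes, and so was AMDKO_231 (female). The females WT_213, WT_214, AMDKO_219 and AMDKO_220 were below it for 8 of 8. AMDKO_220 had the lowest mutant value for 5 genes, and WT_212 the highest WT value for 4.

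**Figure D2:**
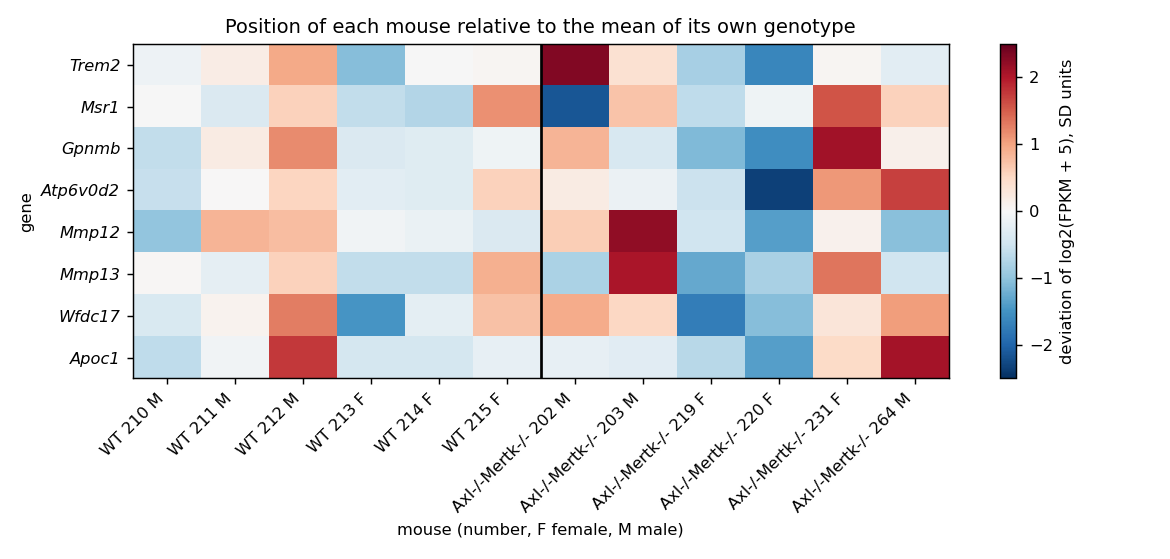
Each gene in each mouse as the deviation of log2(FPKM + 5) from the mean of its own genotype, in SD units of that gene, with WT to the left and Axl-/-Mertk-/- to the right of the line. WT_212 and AMDKO_231 are above their genotype mean for 8 of 8 genes, and WT_213, WT_214, AMDKO_219 and AMDKO_220 below it for 8 of 8.

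The whole table moved in part in the same way. WT_212 was above its genotype mean for 76.8% of the 479 genes, and WT_213 and WT_214 for 36.1% and 31.9%. In mutant mice the shares were 53.2% for AMDKO_231, 30.9% for AMDKO_219 and 36.5% for AMDKO_220. The estimated depth, centred in the same way, had r = 0.14 with the mean of the 8 genes across the 12 mice.

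Of the 28 pairs that the 8 genes form, 27 correlated positively across the 12 mice, with a median Pearson's r of 0.42. The median over all 114481 pairs of the table was 0.127, with 62.5% positive. An r over 0.5 was seen in 12 of the 28 pairs and in 15.2% of all pairs. These points share libraries and, within a genotype, the same mice, and are given as a description. Within WT alone the median was 0.71 (27 pairs positive), and within mutant mice alone 0.42 (26 positive). Without AMDKO_202 the pooled median was 0.648.

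No pair of the 8 genes passed an exact permutation test within genotype after Benjamini-Hochberg adjustment over the 3796 pairs of any of them with any gene of the table, where 0.132% of pairs passed. With an unadjusted p under 0.05 there were 8 of 28 pairs, and 14.6% of the 3796. The strongest pair was *Atp6v0d2* with *Apoc1* (r = 0.83, exact p = 0.00149, adjusted p = 0.124; rho = 0.91, exact p = 0.000486). It joined genes whose means differ between the genotypes in opposite directions: AMDKO_220 was lowest and AMDKO_264 highest for both. Without these mice r was 0.71, and r was 0.69 in WT and 0.92 in mutant mice.

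*Trem2* correlated with *Wfdc17* (r = 0.74, exact p = 0.0073, adjusted p = 0.189; rho = 0.77, exact p = 0.00979), at 0.94 within WT and 0.69 within mutant mice. *Mmp13* correlated with *Msr1* (r = 0.74, exact p = 0.0179, adjusted p = 0.242; rho = 0.88, exact p = 0.00133). Within WT r was 0.99 (exact p = 0.00278) and within mutant mice 0.68 (exact p = 0.140). The spread of *Mmp13* among WT mice was no wider than its counting error, and for *Msr1* that comparison is uncertain. *Gpnmb* with *Apoc1* had r = 0.63 (exact p = 0.0481, adjusted p = 0.337) but rho = 0.89 (exact p = 0.0011). Within WT r was 0.97 with the outlying WT_212 and 0.98 in the 5 WT mice left without it. In mutant mice r was 0.52, and there AMDKO_264 was high for *Apoc1* but not for *Gpnmb*. When each mouse was left out in turn this pair passed in 1 of 12 fits, without AMDKO_264 (r = 0.82, adjusted p = 0.0251 by the exact test). Its r over both genotypes was lowest without AMDKO_220 (0.51, adjusted exact p = 0.572) and without WT_212 (0.53, adjusted exact p = 0.775).

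The lipid receptors *Trem2* and *Msr1* formed the only pair with a negative sign (r = −0.26, exact p = 0.525, adjusted p = 0.813; rho = 0.26, exact p = 0.462). The sign rested on few mice, since r was 0.59 without AMDKO_202 and AMDKO_220, the mice farthest from the median for *Trem2*. The neighbouring *Mmp12* and *Mmp13* had r = 0.59 (exact p = 0.109, adjusted p = 0.458; rho = 0.19, exact p = 0.590), which became 0.13 without AMDKO_203 and AMDKO_220.

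**Figure D3:**
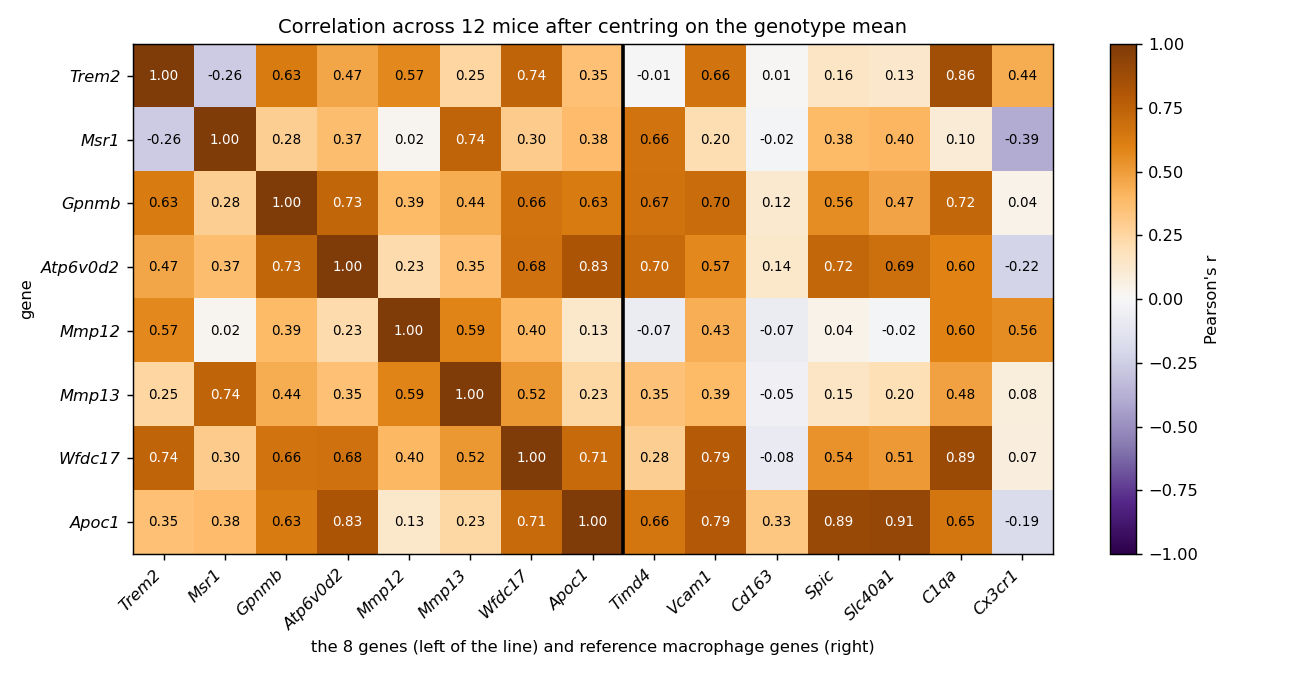
Pearson's r across 12 mice after centring log2(FPKM + 5) on the genotype mean, for the 8 genes with each other (left of the line) and with 7 reference macrophage genes (right). Of the 28 distinct pairs of the 8 genes 27 are positive, and *Vcam1*, *Spic* and *C1qa* are positive with 8 of 8. Among all 114481 gene pairs, 62.5% are positive.

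The 8 genes were also set against 7 reference macrophage genes in the same way. Of the 56 pairs, 46 were positive and 14 had an unadjusted p under 0.05 by the exact permutation test. After adjustment over the 3796 pairs, 0 passed that test. The median r was 0.393 over the 56 pairs and 0.212 over the 3796 pairs, of which 14.6% had an unadjusted p under 0.05. Among all 114481 gene pairs, 62.5% were positive. Whether the 56 pairs exceed this background was not tested. *C1qa*, a complement subunit made by macrophages, was positive with 8 of 8 genes (median r 0.63), as were *Vcam1* (0.62), an adhesion molecule, and *Spic* (0.46), the transcription factor of iron-recycling macrophages. *Timd4* (0.50), a phosphatidylserine receptor, was positive with 6 and the iron exporter *Slc40a1* (0.44) with 7 of the 8. *Cd163* (median r −0.01) and *Cx3cr1* (0.06), the fractalkine receptor, had medians near 0. *Cd163* was at only 0.043 to 0.169 FPKM in mutant mice, against 0.489 to 0.833 in WT. Its pooled r therefore rests mostly on WT mice and on low values, and shows little about mutant mice. Within mutant mice alone its r ran from −0.17 with *Mmp13* to 0.77 with *Atp6v0d2*.

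*C1qa* was closest to *Wfdc17* (r = 0.89, exact p = 0.000426, adjusted p = 0.0771; rho = 0.83, exact p = 0.00385) and to *Trem2* (r = 0.86, exact p = 0.00033, adjusted p = 0.0737; rho = 0.83, exact p = 0.00385). The means, however, moved apart between the genotypes: *C1qa* was at 84.4 ± 17.0 FPKM in WT and 59.6 ± 13.8 in mutant mice (SD, n = 6 each), whereas *Wfdc17* and *Trem2* had higher mutant means. Leaving out the mice farthest from the median gave r = 0.89 for *Wfdc17* and 0.85 for *Trem2*.

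*Apoc1* was closest to *Slc40a1* (r = 0.91, exact p = 0.00181, adjusted p = 0.143; rho = 0.54, exact p = 0.0961) and to *Spic* (r = 0.89, exact p = 0.000218, adjusted p = 0.0659; rho = 0.77, exact p = 0.00979). AMDKO_264, with the highest mutant *Apoc1*, also had the highest mutant *Slc40a1* (11.02 FPKM) and *Spic* (4.13), and WT_212 the highest WT values of all 3 genes. Without both mice r was 0.59 with *Slc40a1* and 0.71 with *Spic*. Without AMDKO_264 alone it was 0.83 and 0.79. *Spic* itself was at 5.11 ± 0.883 FPKM in WT and 2.31 ± 1.007 in mutant mice, and *Slc40a1* at 10.3 ± 1.77 and 6.91 ± 2.18 (SD, n = 6 each).

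**Figure D4:**
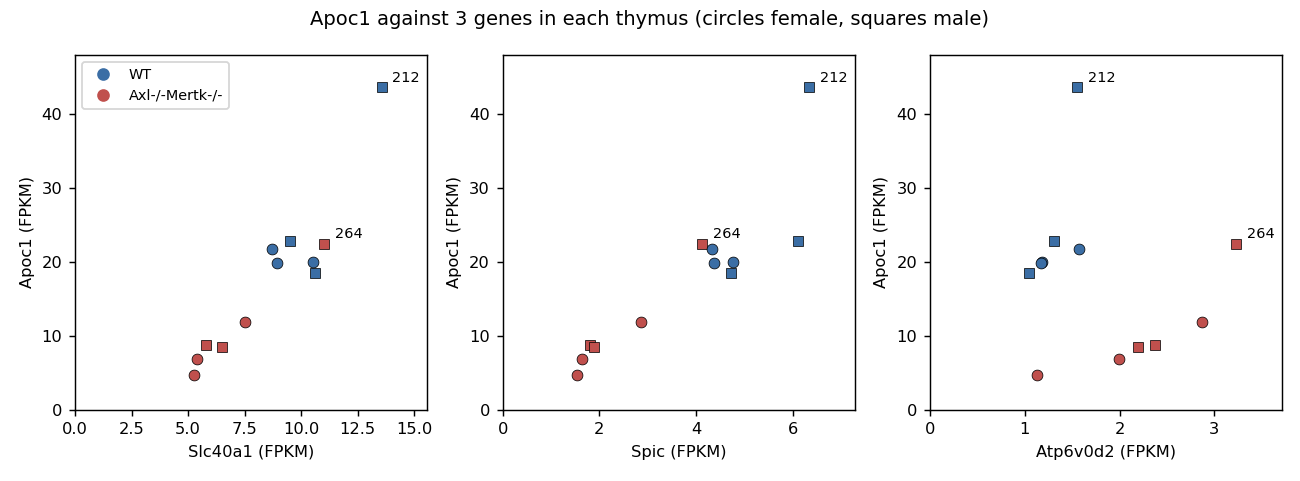
*Apoc1* against *Slc40a1*, *Spic* and *Atp6v0d2* in FPKM, with 1 point per mouse, WT in blue, Axl-/-Mertk-/- in red, circles for females and squares for males. WT_212 and AMDKO_264 are the highest *Apoc1* values of their genotypes, and with *Atp6v0d2* the genotypes form separate bands.

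In all, 5 pairs with other genes of the table passed the adjusted exact test. They were *Gpnmb* with the serine protease inhibitor *Serpina3g* (r = 0.71, exact p = 3.86e-06, adjusted p = 0.0146; rho = 0.97, exact p = 4.24e-05), *Wfdc17* with the Wnt receptor *Fzd2* (r = 0.95, adjusted exact p = 0.0195; rho = 0.94, exact p = 0.000185), and *Atp6v0d2* with *Cfp*, which encodes the complement regulator properdin (r = 0.94, adjusted exact p = 0.0195; rho = 0.91, exact p = 0.000486). *Atp6v0d2* also passed with *Cdhr1* (r = 0.62, adjusted exact p = 0.0293; rho = 0.86, exact p = 0.00222), and *Trem2* with the deiodinase *Dio1* (r = 0.87, adjusted exact p = 0.0293; rho = 0.89, exact p = 0.0011). Within WT and within mutant mice alone, r was 0.94 and 0.95 for *Serpina3g* and 0.98 and 0.91 for *Cdhr1*, above their pooled values. For *Fzd2* it was 0.97 and 0.95, for *Cfp* 0.90 and 0.97, and for *Dio1* 0.92 and 0.90. *Serpina3g*, *Cfp*, *Cdhr1* and *Dio1* had lower means in mutant mice, and *Fzd2* a higher one (0.369 ± 0.0932 FPKM in WT and 0.594 ± 0.155 in mutant mice, SD, n = 6 each).

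None of these 5 calls was kept each time a mouse was left out. With fewer mice the exact test has fewer arrangements, however, and so a larger smallest possible p. Counts of passing fits therefore cannot tell an unstable pair from a coarser test. The highest adjusted exact p over these fits was 0.0879 for *Serpina3g* and for *Fzd2*. *Gpnmb* with *Serpina3g* passed in 7 of 12 such fits, *Wfdc17* with *Fzd2* in 6, *Atp6v0d2* with *Cfp* and with *Cdhr1* in 3 each, and *Trem2* with *Dio1* in 2. The number of pairs called in all ran from 0 (without WT_210, WT_212, WT_213, AMDKO_202 or AMDKO_219) to 11 (without AMDKO_264). The correlations themselves stayed between 0.907 and 0.960 for *Cfp*, between 0.927 and 0.972 for *Fzd2*, between 0.668 and 0.789 for *Serpina3g*, between 0.604 and 0.662 for *Cdhr1* and between 0.783 and 0.907 for *Dio1*.

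Over the mice, the gene most like the mean of the 8 was *Ear2*, a ribonuclease of the eosinophil-associated family, with r = 0.94 on centred values (12 mice, a description). *Ear12* and *Ear3* followed at 0.93, with identical values to each other, so that the near-identical members of this family cannot be separated here. *Ear2* was at 8.46 ± 1.36 FPKM in WT and 4.52 ± 1.64 in mutant mice (SD, n = 6 each), a lower mean, unlike 7 of the 8 genes. The lowest values were those of the histone gene *Hist1h2bj* (r = −0.67), the meiotic recombination gene *Msh5* (−0.65) and the myosin gene *Myo16* (−0.64). Of the 471 other genes, 32 had an r over 0.7 with the mean of the 8, and the median was 0.324.

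Markers of other cells were looked for beside these values. Of 8 monocyte markers 1 was in the table, *Cx3cr1*, at 0.720 to 1.18 FPKM in WT and 1.43 to 2.13 in mutant mice. Of 9 general macrophage markers 1 was present, *C1qa*, and of 7 fibroblast markers 1, *Pdgfra*, at 0.381 to 0.611 and 0.198 to 0.459 FPKM. The lists for osteoclasts (8 genes), neutrophils (8), dendritic cells (8), thymic epithelium (7) and thymocytes (7) had 0 rows, so neither these cells nor the tissue label could be checked with them. The part of any of these cells in the values of the 8 genes was not tested.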

How the data were processed

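Total RNA from the thymus of 12 mice (500 ng per library) was sequenced as stranded mRNA, single reads of 50 bases. Per the submitters' processing notes and the methods, reads were called with CASAVA 1.8.2 and tested with FastQC, mapped to mm10 with STAR 2.5.3a and quantified over the exons of the top isoform with HOMER 4.10.4. The table the authors deposited holds log2 values, log2(FPKM + 5). FPKM were recovered by undoing the logarithm. The annotation, the rule that chose the 479 rows and whether counting used strand are not given in the sources used here.

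The label of WT_210 carries a final b of unstated meaning, and the mouse was kept. Each mouse was 1 replicate. The 8 genes, the gene and marker lists, the tests and the alternatives were chosen with earlier results of these data known. The rule for naming named the 8 genes, up to 4 examples per list, the 3 genes most and least like the mean of the 8, and 7 reference macrophage genes.

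Genotype, sex and their interaction were fitted with limma 3.58.1 in R 4.3.3 over all 479 genes with Benjamini-Hochberg adjustment. Correlations on values centred on the genotype mean were tested two-sided over all 518400 exact arrangements of mice within genotypes, or 720 within 1 genotype. The fits were tested on simulated data. Depth was estimated as the number of reads, between 15000000 and 30000000, that turned low FPKM into whole reads on GENCODE vM21 transcripts. Separate estimates from different genes differed by at most 0.42%. Read numbers are approximate, cover counting error only, and came out nearly whole for *Mmp13* and *Trem2* alone. Alternatives were constants of 1 and 0.1, no sex covariate, an intensity trend, a mean of at least 1 FPKM, each sex or genotype alone, centring on genotype and sex, and leaving out each mouse. Positions are those of GENCODE vM21. Python 3.11.15, numpy 2.4.6, pandas 2.3.3, scipy 1.17.1 and matplotlib 3.10.9 were used.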

Additional observations from a re-analysis of the deposited data

Results flagged for a closer look

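*Apoc1* in WT was flagged because WT_212 (male), at 43.562 FPKM, lay far from the other 5 WT mice, which ran from 18.5 to 22.8 FPKM. The same mouse was above its genotype mean for 8 of 8 genes and for 76.8% of the table. It was the only flag in 16 groups examined (8 genes in each genotype), and chance flags about 1 group in 20.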

How the results depend on the processing

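The genotype difference of each of the 8 genes was recomputed under up to 19 alternatives, and 0 of the 151 values changed direction. The same contrast chose the genes, so neither the kept direction nor the genotype calls below are evidence for a difference. Leaving out the sex covariate could not alter an estimate, since both genotypes held equal numbers of each sex. The size depends on the constant: on the log2 scale *Mmp13* differed by 0.05 with the deposited constant of 5, 0.18 with 1 and 0.58 with 0.1, and *Gpnmb* by 0.57, 1.17 and 1.58. The number of higher genes past both thresholds, 2, became 3 with a constant of 1 and 7 with 0.1. The share of the table that passed with a constant of 1 was not computed. When a mouse was left out, the number ran from 1 (without AMDKO_231, when *Gpnmb* fell to 0.49) to 2. *Apoc1* passed in females alone (log2 difference −1.03) but not in males alone (0 genes lower past both thresholds), where its difference was still −0.88, against −0.96 in all mice. The median correlation over the 28 pairs was 0.711 in WT alone, and ran from 0.362 to 0.648 with a mouse left out. The number of pairs called ran from 0 to 1, the latter without AMDKO_264. With a minimum mean of 1 FPKM, 7 of the 8 genes stayed in the fit and *Mmp13* left it. Tests of sex and of the interaction called 0 of the 8 genes under each alternative run. Settings applied to the number of lower genes, to the sign of the pairs and to single mice for *Apoc1* were added after seeing the data. No paired analysis was possible because the mice of the 2 genotypes share no numbers. With few reads for *Mmp13*, its differences among WT mice are limited by counting error, and for *Msr1* the read estimate is uncertain.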

Other observations

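Chosen after their values were seen, the genes that followed the *Ear* genes in likeness to the mean of the 8 were *Arg1*, arginase 1, with r = 0.91, and *Cfp*, properdin, with r = 0.91 (12 mice, centred on genotype). *Arg1* was at 0.589 ± 0.220 FPKM in WT and 1.28 ± 0.398 in mutant mice, and *Cfp* at 18.0 ± 2.01 and 10.8 ± 2.22 (SD, n = 6 each), so the genotype means of these genes differ in opposite directions. Without WT_212 the correlations were 0.902 for *Arg1* and 0.900 for *Cfp*. *C1qa* (r = 0.86) and *Stab1* (r = 0.83) were also among the 8 most alike.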
